A study of Mus musculus with 24 samples.

Results

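The comparison described here asked what the AKT and NRas oncogene plasmids added to a liver that was already injured by thioacetamide (TAA). It set the 5 livers of SB/AKT/NRas + TAA against the 4 livers of SB + TAA, chosen by their sample titles, which is 9 of the 24 livers sequenced, and all genes were examined. Every mouse was a male C57BL/6JAusb animal of 14 to 15 weeks. All of them, the SB + TAA controls included, had a hydrodynamic tail vein injection of 0.8 µg of SB, a plasmid for the Sleeping Beauty transposase, and the SB/AKT/NRas mice had 10 µg of AKT plasmid (myristoylated AKT) and 10 µg of NRas plasmid (human NRas with the V12 mutation) with it. From day 8 to 10 both groups had 10 to 11 intraperitoneal injections over 5 to 6 weeks, the first with 100 mg/kg of TAA and the later ones with 200 mg/kg. The other groups, used only where stated, were SB + saline (n = 4), SB/AKT/NRas + saline (n = 4), SB/AKT/c-Met + saline (n = 3) and SB/AKT/c-Met + TAA (n = 4). Each library was the bulk liver RNA of 1 mouse, so p-values measure the spread between mice. Hydrodynamic injection reaches only a part of the hepatocytes, and that part was not measured here, so that transfected and other cells lie in the same sample. In bulk tissue, fewer cells of a type and less RNA per cell cannot be told apart.

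Active AKT drives glucose uptake, glycolysis and the synthesis of fatty acids and triglycerides in hepatocytes, and mutant NRas signals through the RAF, MEK and ERK kinases to transcription factors of the AP-1 and ETS families. TAA is converted by cytochrome P450 enzymes of perivenous hepatocytes into a toxic metabolite, and repeated doses cause necrosis, regeneration and scarring. The values that follow are counts of deduplicated molecules as CPM, counts relative to the library total after TMM scaling, listed in the order of replicates 1 to 5 of SB/AKT/NRas + TAA and 1 to 4 of SB + TAA. Fold changes are log2 values of the edgeR quasi-likelihood fit with their standard error, and positive values are higher with the plasmids. A gene rose or fell where its edgeR adjusted p was under 0.05, and was called where its log2 fold change was also beyond 1. For list members at an unadjusted p under 0.05, the share of all genes at that threshold was not counted. Those numbers therefore do not show a shift of a list.

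The plasmid was detected first as a check of the labels. Human NRAS, counted on its own transcript sequence, was at 34, 47.7, 18.5, 17.9 and 75.7 CPM in SB/AKT/NRas + TAA and 0, 0, 0.612 and 0 CPM in SB + TAA. The summed counts of 666 and 2 gave a ratio of 256, 95% counting interval 70.5 to 2115 (edgeR adjusted p = 6.2e-05), and the groups did not overlap. Its level varied among the livers with the plasmid, highest in replicate 5 and lowest in replicates 3 and 4. Human MET had no count in either group. The table has no feature for the AKT plasmid, so its expression was not analysed here. Mouse Nras was at 56.4, 62.2, 47, 44.7 and 57.4 CPM against 37, 34.3, 46.8 and 43.3 CPM (log2 fold change 0.41 ± 0.17, edgeR adjusted p = 0.354), and mouse Akt1 (log2 fold change 0.18 ± 0.25, edgeR adjusted p = 0.86), Akt2 (log2 fold change −0.08 ± 0.19, edgeR adjusted p = 0.942) and Met (log2 fold change 0.10 ± 0.19, edgeR adjusted p = 0.904) did not pass either. The libraries held 2651690 to 3399247 counts in SB/AKT/NRas + TAA and 2686972 to 3234428 in SB + TAA, and detected 17355 to 18707 and 16838 to 19026 genes. Albumin and the other hepatocyte markers made up 108760 to 155380 CPM with the plasmids and 130530 to 188610 CPM without, and none of 18 hepatocyte markers passed in edgeR, with 5 lower at an unadjusted p under 0.05 and 2 lower by limma-voom and by DESeq2. SB + TAA replicate 4 stood apart, with 12645 CPM in the 26 skeletal muscle genes tested, where the other 8 livers had 31.3 to 48.6 CPM. Decreases are therefore given with and without that liver.

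Of 19381 genes tested, 160 were called higher in SB/AKT/NRas + TAA (0.826%) and 80 were called lower (0.413%). Without SB + TAA replicate 4, 130 of 19156 were called higher (0.679%) and 13 lower (0.0679%). Most increases were called in both fits and most decreases were not. In numbers, 115 of the 160 increases and 9 of the 80 decreases were called both ways, and all 160 increases kept a positive fold change. Of the 160 increases, 149 had all 5 livers above all 4, where 2.89% of all genes had livers that did not overlap in this direction. Only 15 of the 80 decreases had livers that did not overlap, against 1.71% of all genes. The calls were made on these same livers, so separation of the groups follows in part from the call and is no further evidence for it. Among the increases, 91 had a fitted log2 fold change over 2, 8 had no count in any SB + TAA liver and 13 had 1 to 3 counts there. For genes with no count in SB + TAA the fold is given as a lower bound against 3 counts over that group, and for genes with 1 to 3 counts as a ratio with its 95% counting interval. Both cover counting error only.

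**Figure D1:**
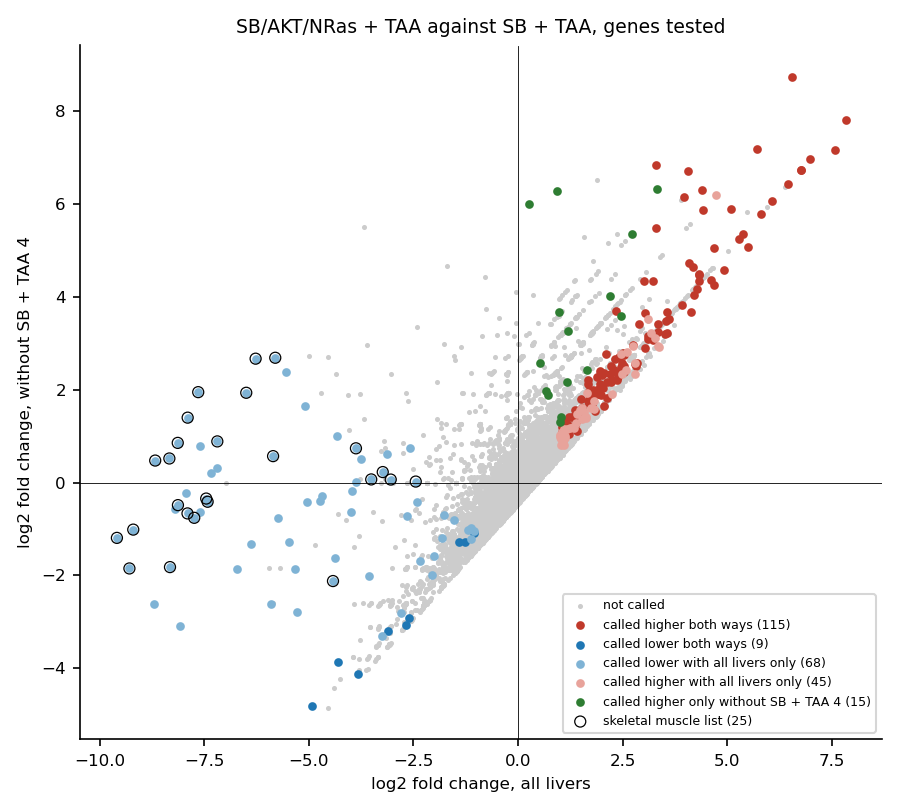
Log2 fold changes of SB/AKT/NRas + TAA against SB + TAA from the edgeR fit, with all livers on the horizontal axis and without SB + TAA replicate 4 on the vertical axis, 1 point per gene. The 115 increases called both ways (red) lie near the diagonal, as do the 9 decreases called both ways (blue), while 68 decreases called with all livers only (light blue, with most circled genes of the muscle list) move up towards 0. Pink points are 45 increases called with all livers only and green points 15 increases called only without that liver.

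Lipid storage genes were among the largest increases. Of 16 lipid droplet proteins tested, 4 rose and none fell, where 1.01% of all genes rose and 0.464% fell. Without SB + TAA replicate 4, 0.726% of all genes rose and 0.094% fell. Cidea, which moves lipid between droplets and enlarges them, was at 149, 172, 55.5, 99.4 and 91 CPM in SB/AKT/NRas + TAA and 2.69, 2.37, 3.67 and 2.7 CPM in SB + TAA (log2 fold change 5.28 ± 0.53, edgeR adjusted p = 1.16e-06). Its close relative Cidec was at 50.4, 72.9, 28.8, 33 and 51.4 CPM against 5.71, 2.37, 4.28 and 3.79 CPM (log2 fold change 3.53 ± 0.42, edgeR adjusted p = 1.22e-05). In both genes the lowest liver with the plasmids was far above the highest SB + TAA liver. Fitm1, a protein of the endoplasmic reticulum that packages triglyceride into droplets, was at 93.8, 93.4, 84, 113 and 98 CPM against 5.38, 6.32, 2.75 and 25.2 CPM (log2 fold change 3.23 ± 0.42, edgeR adjusted p = 3.53e-05). Its one high SB + TAA value was in the liver with muscle transcripts, and without that liver the difference was larger (4.34 ± 0.39, edgeR adjusted p = 1.56e-07). Plin2, which coats droplets, was at 843, 842, 579, 544 and 915 CPM against 368, 471, 278 and 253 CPM (log2 fold change 1.12 ± 0.26, edgeR adjusted p = 0.0204), and lost its call without SB/AKT/NRas + TAA replicate 1, 2 or 5 or SB + TAA replicate 3 or 4 (edgeR adjusted p = 0.106 in the last case). Plin4, another coat protein, was at 5.01, 8.84, 3.76, 4.81 and 6.77 CPM with the plasmids, at 0, 1.18 and 0.612 CPM in SB + TAA replicates 1 to 3 and at 7.57 CPM in replicate 4, and passed only without that liver (3.26 ± 0.64, edgeR adjusted p = 0.00628). The median of the list was 0.36 with all livers and 0.34 without replicate 4, beside −0.02 and 0 for all genes tested.

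**Figure D2:**
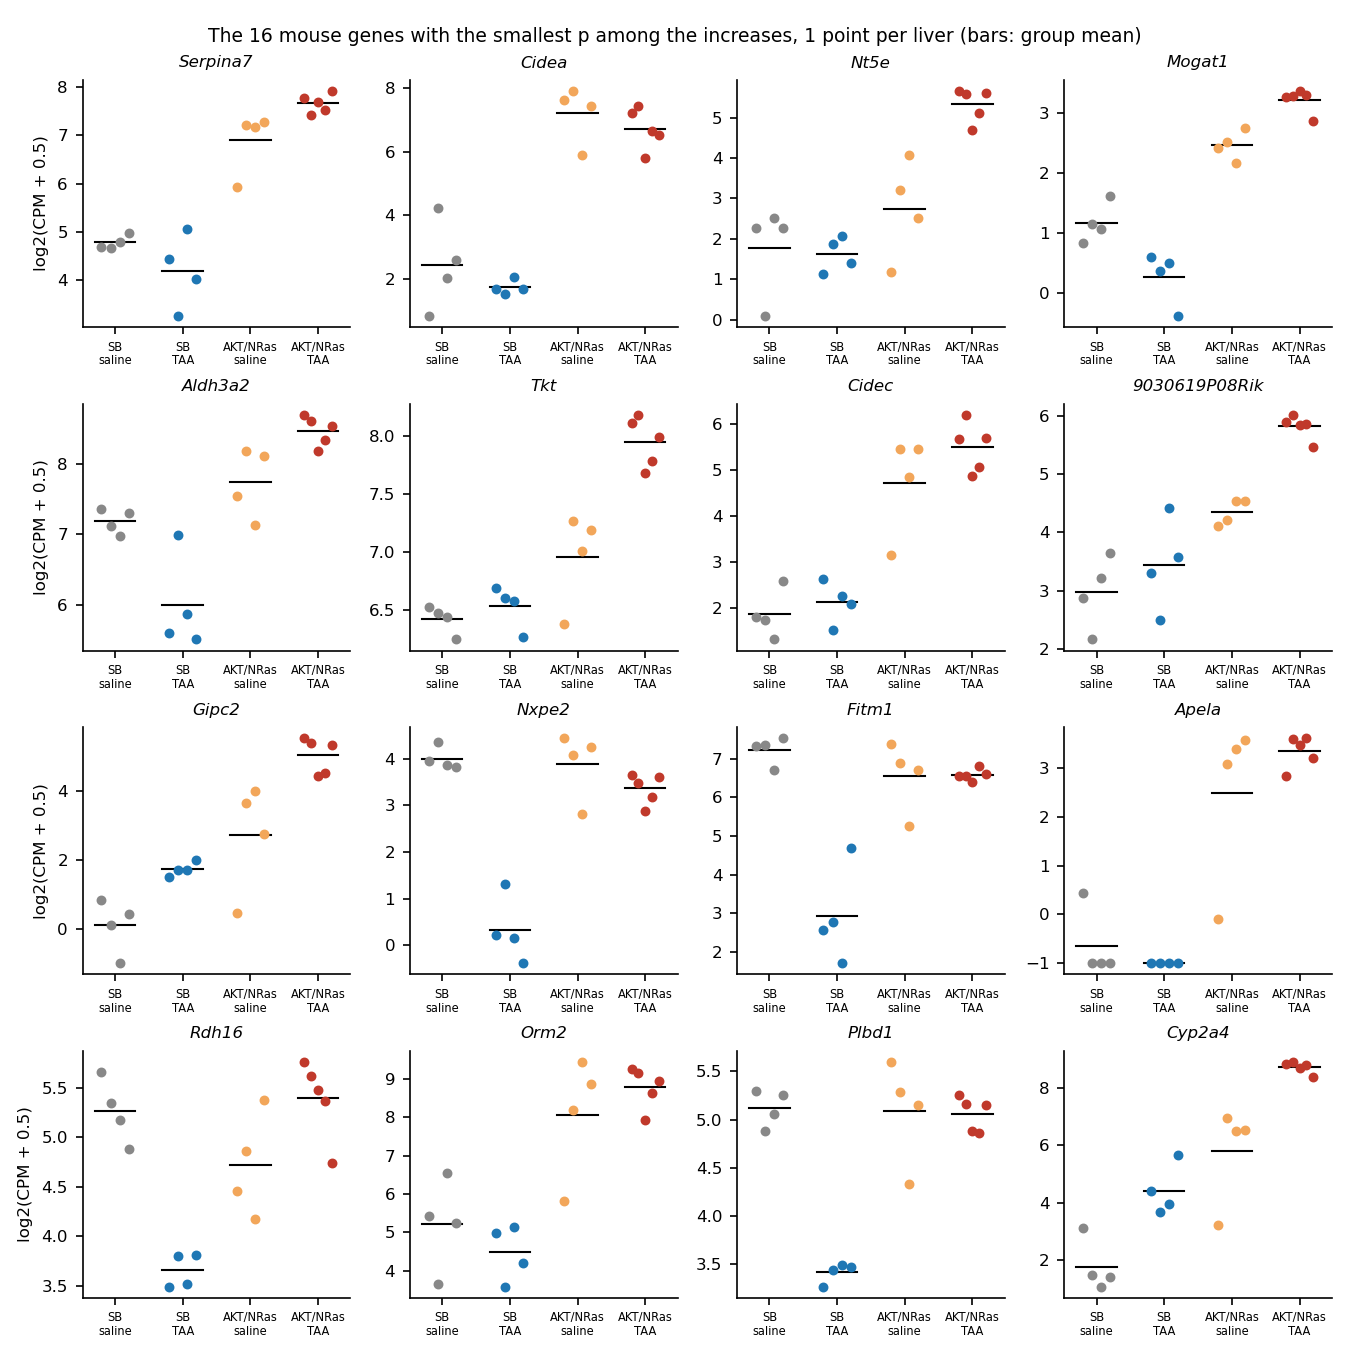
Levels of 16 of the leading increases as log2(CPM + 0.5), 1 point per liver and a bar at the group mean, in the groups SB + saline, SB + TAA, SB/AKT/NRas + saline and, last, SB/AKT/NRas + TAA. In every panel the 5 livers of SB/AKT/NRas + TAA lie above the 4 of SB + TAA. Cidea reached similar levels in SB/AKT/NRas + saline, while Fitm1, Nxpe2, Rdh16 and Plbd1 were low in SB + TAA alone.

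Of 31 genes of fatty acid and triglyceride synthesis, 4 rose and none fell, all 4 also without SB + TAA replicate 4. Mogat1, a monoacylglycerol acyltransferase that starts triglyceride synthesis from monoacylglycerol, was at 9.01, 9.15, 9.72, 9.28 and 6.77 CPM in SB/AKT/NRas + TAA and 1.01, 0.789, 0.917 and 0.27 CPM in SB + TAA (log2 fold change 3.52 ± 0.40, edgeR adjusted p = 7.9e-06). Pparg, a nuclear receptor that drives fat storage, was at 9.34, 10.4, 11.9, 9.28 and 9.27 CPM against 1.01, 1.18, 3.36 and 1.89 CPM (log2 fold change 2.37 ± 0.36, edgeR adjusted p = 0.000229). Insig2, which holds the SREBP activator in the endoplasmic reticulum, was at 394, 375, 339.9, 349.7 and 441 CPM against 160.0, 180.0, 140.4 and 113 CPM (log2 fold change 1.36 ± 0.25, edgeR adjusted p = 0.00238), and Me1, the malic enzyme that supplies NADPH, was at 143, 198, 221, 231 and 124 CPM against 79, 75, 111 and 50.6 CPM (log2 fold change 1.22 ± 0.23, edgeR adjusted p = 0.00291). The livers of the 2 groups did not overlap in any of these 4 genes. limma-voom and DESeq2 each passed 5 of the 31, all higher. Fasn, the fatty acid synthase, did not pass in edgeR and had 337 to 533 CPM against 123 to 481 CPM (log2 fold change 0.58 ± 0.28, edgeR adjusted p = 0.436), nor did Elovl6, a fatty acid elongase (log2 fold change 1.12 ± 0.30, edgeR adjusted p = 0.0551), or Scd1, the stearoyl-CoA desaturase, which had 5162 to 8937 CPM against 4325 to 6768 CPM (log2 fold change 0.33 ± 0.25, edgeR adjusted p = 0.683). The median of the list was 0.33. Cholesterol synthesis and uptake had no gene that passed among 24, with 17 negative fold changes and a median of −0.27.

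Genes of fatty acid oxidation and PPARα target genes gave 5 increases among 44 tested and no decrease. Vnn1, a pantetheinase, was at 48.7, 41.7, 29.8, 41.3 and 49.4 CPM in SB/AKT/NRas + TAA and 6.72, 22.1, 7.65 and 3.25 CPM in SB + TAA (log2 fold change 2.14 ± 0.34, edgeR adjusted p = 0.00049). Fgf21, a hormone of the fasting and stressed liver, was at 31.7, 46.1, 23.5, 14.8 and 39.8 CPM against 1.01, 13, 2.75 and 2.16 CPM (log2 fold change 2.81 ± 0.48, edgeR adjusted p = 0.00118). SB + TAA replicate 2 stood above its group in Fgf21 but stayed below every liver with the plasmids. Ucp2, a mitochondrial carrier (log2 fold change 1.62 ± 0.38, edgeR adjusted p = 0.0194), Acnat2, an acyltransferase of peroxisomes (log2 fold change 1.34 ± 0.32, edgeR adjusted p = 0.0275), and Pex11a, which divides peroxisomes (log2 fold change 1.07 ± 0.27, edgeR adjusted p = 0.038), also rose, but each lost its call when SB + TAA replicate 4 and when some of the other livers were left out, so that 2 of 44 passed without replicate 4. Cd36, a fatty acid receptor, was at 404, 396, 245, 221 and 342 CPM against 83, 88.4, 115 and 115 CPM (log2 fold change 1.68 ± 0.27, edgeR adjusted p = 0.000554), with all livers above those of SB + TAA. Aldh3a2, which oxidizes fatty aldehydes, was at 415, 389.7, 290.0, 324 and 372 CPM against 48.1, 127, 57.8 and 44.9 CPM (log2 fold change 2.37 ± 0.27, edgeR adjusted p = 7.91e-06).

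Glycolysis and pentose phosphate enzymes, a group of 34, held 4 increases and 1 decrease. Tkt, the transketolase that links both pathways, was at 275, 289, 205, 219 and 253 CPM in SB/AKT/NRas + TAA and 103, 96.7, 94.8 and 76.5 CPM in SB + TAA (log2 fold change 1.42 ± 0.17, edgeR adjusted p = 8.99e-06). The lowest liver with the plasmids lay well above the highest without. Ugp2, which makes UDP-glucose for glycogen, was at 568, 602, 600.5, 473 and 467 CPM against 230.2, 306, 307 and 195 CPM (log2 fold change 1.06 ± 0.20, edgeR adjusted p = 0.00247). Pklr, the liver pyruvate kinase, was at 94.4, 134, 135, 109 and 79.7 CPM against 56.5, 51.7, 79.8 and 18.9 CPM (log2 fold change 1.09 ± 0.26, edgeR adjusted p = 0.025) and lost its call without SB/AKT/NRas + TAA replicate 2 or 3 or SB + TAA replicate 1 or 4. Gpi1, the glucose phosphate isomerase (log2 fold change 0.61 ± 0.16, edgeR adjusted p = 0.0453), lost its call in 8 of 9 omissions of 1 liver, all but that of SB + TAA replicate 3. The decrease was Eno3, the enolase of muscle, at 134 CPM in SB + TAA replicate 4, and its fold change moved from −3.51 to 0.07 without that liver. Hk2, a hexokinase that is low in normal hepatocytes, was at 18.7, 19.9, 8.47, 7.22 and 18 CPM with the plasmids, 3.02, 2.37 and 1.83 CPM in SB + TAA replicates 1 to 3 and 31.4 CPM in replicate 4, and rose only without the last (2.58 ± 0.48, edgeR adjusted p = 0.00366). The summed level of the group was 8464 to 10324 CPM with the plasmids and 5127 to 7897 CPM in SB + TAA, ranges that did not overlap. Abundant members weigh most in such a sum and were not summed apart, so it does not show a rise of the whole group. Of the 34 fold changes 23 were positive and 11 negative, with a median of 0.26. No gluconeogenesis enzyme passed among 10. Pck1, which controls gluconeogenesis, was higher in all 5 livers but missed the threshold (log2 fold change 0.75 ± 0.34, edgeR adjusted p = 0.384). In that list 2 members had an unadjusted p under 0.05, and limma-voom and DESeq2 passed none.

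Among 46 drug-metabolizing P450 enzymes, 5 rose and none fell. Cyp2a4, a testosterone 15α-hydroxylase of the female-biased set, was at 453, 478, 415, 446 and 334 CPM in SB/AKT/NRas + TAA and 20.5, 12.2, 15 and 50.6 CPM in SB + TAA (log2 fold change 4.09 ± 0.56, edgeR adjusted p = 6.2e-05), without overlap. Cyp2a5, the coumarin hydroxylase, was at 901, 815, 718, 867 and 601 CPM against 106, 254, 127 and 109.5 CPM (log2 fold change 2.39 ± 0.44, edgeR adjusted p = 0.00231). Cyp2b9 had 27.7, 20.8, 23.8, 15.1 and 7.52 CPM with the plasmids and a single SB + TAA liver with counts, replicate 4 at 0.541 CPM, a ratio of 115, 95% counting interval 31.5 to 952 (edgeR adjusted p = 6.2e-05). Cyp2c38 was at 27.7, 24, 28.5, 29.9 and 19.8 CPM against 1.34, 9.08, 3.67 and 1.35 CPM (log2 fold change 2.82 ± 0.45, edgeR adjusted p = 0.00049). Cyp2a22 rose with all livers (log2 fold change 1.63 ± 0.37, edgeR adjusted p = 0.0186) but not without SB + TAA replicate 4 (edgeR adjusted p = 0.097), SB + TAA replicate 1 or SB/AKT/NRas + TAA replicate 1. Cyp2e1, the enzyme that activates TAA, was at 604, 618, 455, 588 and 447 CPM against 253, 754, 509 and 276 CPM (log2 fold change 0.28 ± 0.35, edgeR adjusted p = 0.842), and its livers overlapped. The median of the 46 was 0.09, so the increases were few members of a list that was otherwise spread around 0.

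Cyp2a4 and Cyp2a5 are near-identical copies on chromosome 7 (GRCm38, 26307169 to 26315088 and 26835305 to 26843548), and reads that map equally well to both were not counted, so the split between them is uncertain. The 250 bases before their RefSeq starts (GRCm38.p6, plus strand) are shown because both genes rose. They match at 245 of 249 bases, 98.4%, and capitals mark the 4 bases of each that differ in the alignment.
Cyp2a4, chr7:26306942-26307191: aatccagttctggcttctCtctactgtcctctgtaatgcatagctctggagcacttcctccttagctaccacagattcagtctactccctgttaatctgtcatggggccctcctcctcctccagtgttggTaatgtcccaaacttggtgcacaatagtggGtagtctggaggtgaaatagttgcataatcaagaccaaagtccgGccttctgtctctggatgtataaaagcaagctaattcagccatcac
Cyp2a5, chr7:26835089-26835338: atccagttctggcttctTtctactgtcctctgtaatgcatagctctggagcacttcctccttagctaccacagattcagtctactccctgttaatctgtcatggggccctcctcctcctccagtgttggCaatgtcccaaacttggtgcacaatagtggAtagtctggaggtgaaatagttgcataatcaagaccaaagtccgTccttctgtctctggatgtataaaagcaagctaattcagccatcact
Next to these near-identical sequences, the fitted changes of the 2 genes were of different size, with 24.6 ± 17.7 CPM (SD, n = 4) of Cyp2a4 in SB + TAA and 425 ± 55.6 CPM (SD, n = 5) with the plasmids, and 149 ± 70.6 CPM and 780.5 ± 122 CPM of Cyp2a5. The difference between the 2 fold changes was not tested.

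Of 27 acute phase proteins, 4 rose and none fell. Orm2, an orosomucoid that carries drugs in plasma, was at 619, 574, 245, 399.9 and 492 CPM in SB/AKT/NRas + TAA and 30.9, 11.4, 34.9 and 17.9 CPM in SB + TAA (log2 fold change 4.29 ± 0.58, edgeR adjusted p = 5.86e-05). Orm3 was at 49.1, 27.5, 10.7, 19.9 and 16 CPM against 1.01, 1.18, 1.22 and 0.541 CPM (log2 fold change 4.60 ± 0.69, edgeR adjusted p = 0.000201). Lbp, the lipopolysaccharide binding protein, also rose (log2 fold change 1.03 ± 0.20, edgeR adjusted p = 0.00388), as did Lcn2, described with the bile duct markers. The others did not pass, Saa1 (log2 fold change −0.53 ± 0.55, edgeR adjusted p = 0.786) and Hp (log2 fold change 0.81 ± 0.27, edgeR adjusted p = 0.167) among them, and the median of the 27 was 0.02. Orm2 and Orm3 lie side by side on chromosome 4 (GRCm38, 63362449 to 63365878 and 63356162 to 63359511) and share sequence, so that reads of one may be counted for the other or for neither. Their 250 bases before the RefSeq start (GRCm38.p6, plus strand) are shown because both rose and both hold TGAATCA, in capitals. It matches the search letters TGANTCA for AP-1, where N allows any base. The match begins 207 bases before the start in Orm2 and 208 in Orm3. The pair matches at 219 of 250 aligned positions, 87.6%.
Orm2, chr4:63362199-63362448: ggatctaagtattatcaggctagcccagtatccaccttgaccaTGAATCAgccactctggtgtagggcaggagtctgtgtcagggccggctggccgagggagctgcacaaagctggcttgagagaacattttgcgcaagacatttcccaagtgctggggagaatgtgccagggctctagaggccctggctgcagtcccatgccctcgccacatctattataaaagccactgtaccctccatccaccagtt
Orm3, chr4:63355908-63356157: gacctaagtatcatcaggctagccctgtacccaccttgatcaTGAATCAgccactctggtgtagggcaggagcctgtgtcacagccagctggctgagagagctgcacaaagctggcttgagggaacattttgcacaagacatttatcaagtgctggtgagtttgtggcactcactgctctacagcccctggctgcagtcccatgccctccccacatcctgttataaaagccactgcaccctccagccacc
Across the 112 increases that were called both ways without overlap of livers, 86 had a RefSeq promoter of this length, and 10 of these (11.6%) held TGANTCA on either strand, against 731 of 11856 genes tested (6.17%). The ETS letters CCGGAAG were in 3 of 86 (3.49%) and in 14.0% of all, the E-box CACGTG in 10 (11.6%) and in 9.29%, and the antioxidant response element TGACNNNGC in 8 (9.3%) and in 13.7%. Over all called increases with a promoter, 119, the shares were 10.9% for TGANTCA, 3.36% for CCGGAAG, 8.4% for CACGTG, which is then below that of all genes, and 12.6% for TGACNNNGC. These are counts of letters with no test, and a match is not a binding site.

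Genes of glutathione use and carbonyl reduction included 6 increases among 50 and no decrease. Cbr3, a carbonyl reductase, was at 90.8, 72.3, 57.7, 70.1 and 61.1 CPM in SB/AKT/NRas + TAA and 5.71, 9.08, 10.1 and 5.41 CPM in SB + TAA (log2 fold change 3.22 ± 0.46, edgeR adjusted p = 9.46e-05). Mgst2, a membrane glutathione transferase, had 42 counts with the plasmids and 1 in SB + TAA, a ratio of 32.2, 95% counting interval 5.48 to 1303 (edgeR adjusted p = 0.00581). Gstm2 was at 410.2, 348, 256, 269 and 287 CPM against 82, 117, 154 and 148 CPM (log2 fold change 1.32 ± 0.28, edgeR adjusted p = 0.00976), Gstm3 at 2169, 1751, 1149.8, 1386 and 1488 CPM against 285, 613, 669 and 641 CPM (log2 fold change 1.53 ± 0.38, edgeR adjusted p = 0.0343) and Gstm4 had 136 to 173 CPM against 60.2 to 106 CPM (log2 fold change 0.98 ± 0.23, edgeR adjusted p = 0.0194). These Gstm genes are close copies whose reads may be split, and their calls were the less firm ones: Gstm2 was lost without SB + TAA replicate 1, Gstm4 without SB + TAA replicate 1 or 4, and Gstm3 without SB/AKT/NRas + TAA replicate 1, 2 or 5 or SB + TAA replicate 1, 3 or 4. Cbr1 (log2 fold change 1.01 ± 0.26, edgeR adjusted p = 0.0372) was lost in several omissions of 1 liver. Nqo1, the quinone reductase, was at 49.1, 41.7, 30.4, 29.6 and 20.8 CPM with the plasmids, 13.1, 13.4 and 15 CPM in SB + TAA replicates 1 to 3 and 26 CPM in replicate 4, and rose only without the last (1.30 ± 0.31, edgeR adjusted p = 0.037). Gpx3, a secreted glutathione peroxidase, behaved in the same way, with 47.9 CPM in that liver (1.89 ± 0.44, edgeR adjusted p = 0.0277 without it).

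Membrane transporters of the Slc22 family of organic ion carriers gave 4 increases among 12 and no decrease, and the same 4 passed without SB + TAA replicate 4. Slc22a27 was at 12.3, 13.6, 10.7, 8.25 and 17 CPM in SB/AKT/NRas + TAA and 0.336, 0, 0 and 1.62 CPM in SB + TAA (log2 fold change 4.39 ± 0.67, edgeR adjusted p = 0.000282), and Slc22a15 at 15.7, 16.1, 17.2, 25.4 and 18 CPM against 8.07, 9.87, 8.56 and 7.03 CPM (log2 fold change 1.15 ± 0.21, edgeR adjusted p = 0.00187). Slc22a3, an organic cation transporter, had 0.314 to 3.47 CPM with the plasmids and no count in SB + TAA, at least 9.98-fold higher (edgeR adjusted p = 0.00252). Slc22a29 had a ratio of 19.2, 95% counting interval 6.32 to 95.1 (edgeR adjusted p = 0.00323). Outside this family, Slc13a3, which takes up dicarboxylates, was at 41.4, 30.3, 21.9, 26.1 and 26.8 CPM against 3.36, 4.34, 5.5 and 8.11 CPM (log2 fold change 2.42 ± 0.34, edgeR adjusted p = 7.37e-05), and Abcc4, an export pump for bile acids and cyclic nucleotides, was at 34.7, 38.2, 26.7, 31.3 and 29.6 CPM against 8.4, 7.89, 7.34 and 9.74 CPM (log2 fold change 1.93 ± 0.31, edgeR adjusted p = 0.000488), the 1 gene of 21 for bile acid synthesis and transport that passed.

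Female-biased liver genes, which in male mice are held low by pulsed growth hormone, rose in 5 of 29 tested (Cyp2a4, Cyp2b9, Slc22a27, Cd36 and Slc22a29) and fell in none. All 5 passed without SB + TAA replicate 4 too, and the summed level was 1001 to 1322 CPM with the plasmids and 438 to 706 CPM in SB + TAA. Cyp2a4 (334 to 478 CPM) and Cd36 (221 to 404 CPM) made up most of that sum in every plasmid liver. In SB + TAA they had 12.2 to 50.6 and 83 to 115 CPM, and the other members were not summed apart. The median of the 29 was 0.56 with all livers and 0.83 without replicate 4. Of 34 male-biased genes none passed with all livers (median 0.25), with 4 higher and 2 lower at an unadjusted p under 0.05 and 1 higher by DESeq2. Without replicate 4 only Ugt2b38, a glucuronosyltransferase, fell (−2.65 ± 0.65, edgeR adjusted p = 0.0435). The summed level of this list was 12048, 14826, 36840, 40213 and 14025 CPM against 26140, 33079, 25656 and 8311 CPM, so the groups overlapped. The lowest SB + TAA value was that of replicate 4. Beside the 25656 to 33079 CPM of SB + TAA replicates 1 to 3, plasmid replicates 1, 2 and 5 were lower and plasmid replicates 3 and 4 higher.

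A minority of the markers used for fetal liver, liver cancer and bile duct cells rose. Of 26 fetal and cancer markers 6 rose and none fell, all 6 also without SB + TAA replicate 4, and the median was 0.78 with all livers and 1.33 without that one. Gpc3, a heparan sulfate proteoglycan of fetal liver and liver cancer, was at 75.8, 87.1, 105, 66 and 81.9 CPM in SB/AKT/NRas + TAA and 6.72, 4.74, 20.8 and 7.57 CPM in SB + TAA (log2 fold change 3.04 ± 0.56, edgeR adjusted p = 0.00223). Ly6d, a surface protein linked to the membrane by a lipid anchor, was at 1483, 1049, 546, 571 and 1011 CPM against 159, 68.7, 132 and 197 CPM (log2 fold change 2.74 ± 0.51, edgeR adjusted p = 0.00252). Sox4, a transcription factor, was at 52.7, 62.2, 38.3, 22.7 and 94.7 CPM against 11.1, 13, 7.03 and 13 CPM (log2 fold change 2.30 ± 0.45, edgeR adjusted p = 0.00467). Tubb2b, a β-tubulin, was at 18.7, 26.2, 11.9, 6.53 and 20.5 CPM against 0.672, 0, 1.53 and 0.811 CPM (log2 fold change 4.33 ± 0.60, edgeR adjusted p = 6.2e-05). Each of these had livers that did not overlap. Meg3 (log2 fold change 3.000 ± 0.66, edgeR adjusted p = 0.0127) and Rian (log2 fold change 3.31 ± 0.86, edgeR adjusted p = 0.0443), imprinted noncoding RNAs, rose with more scatter, and their calls were less firm. Meg3 lost its call without SB + TAA replicate 1 or 3, and Rian in 7 of 9 omissions of 1 liver, all but those of SB/AKT/NRas + TAA replicate 4 and SB + TAA replicate 4, and also with library size alone, filterByExpr and robust estimation. Afp, the fetal albumin-like protein, was at 72.8, 78.3, 35.1, 27.2 and 167 CPM against 35.3, 19.7, 33.9 and 55.2 CPM (log2 fold change 1.07 ± 0.59, edgeR adjusted p = 0.526) and its livers overlapped.

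Of 26 bile duct and ductular reaction markers, 3 rose and none fell. Lcn2, an iron-siderophore binding protein of injured epithelium and of neutrophils, was at 627, 1005, 144, 125 and 1197 CPM in SB/AKT/NRas + TAA and 39.3, 14.6, 28.1 and 41.7 CPM in SB + TAA (log2 fold change 4.31 ± 0.92, edgeR adjusted p = 0.00951). St14, the protease matriptase, was at 3, 6, 3.45, 3.09 and 10.3 CPM against 0.336, 0.395, 0.612 and 0.541 CPM (log2 fold change 3.34 ± 0.63, edgeR adjusted p = 0.00291). Tspan8, a tetraspanin, was at 52.4, 50.5, 17.6, 9.63 and 105 CPM against 6.05, 2.37, 6.42 and 5.68 CPM (log2 fold change 3.17 ± 0.74, edgeR adjusted p = 0.0194) and lost its call without SB/AKT/NRas + TAA replicate 5 or SB + TAA replicate 1, 2 or 4. Spp1, osteopontin, was at 1218, 1528, 303, 202 and 4641 CPM against 165, 103, 195 and 167 CPM, higher in all 5 livers but by amounts so unequal that it missed the threshold (log2 fold change 3.33 ± 0.89, edgeR adjusted p = 0.0554). The defining keratins of bile ducts overlapped between groups and did not pass, with their highest values in SB/AKT/NRas + TAA replicate 5, Krt19 at 5.34, 1.58, 1.25, 2.41 and 20.5 CPM against 0.336, 0.395, 3.36 and 2.98 CPM (log2 fold change 1.77 ± 0.91, edgeR adjusted p = 0.477) and Krt7 at 4.34, 1.26, 0.941, 0.688 and 12.5 CPM against 2.35, 0.789, 1.53 and 1.62 CPM (log2 fold change 1.34 ± 0.75, edgeR adjusted p = 0.534). Epcam (log2 fold change 0.46 ± 0.68, edgeR adjusted p = 0.869) and Sox9 (log2 fold change 0.45 ± 0.43, edgeR adjusted p = 0.763) did not pass either. The summed level of the 26 markers was 407 to 6303 CPM against 198 to 346 CPM. Spp1 and Lcn2 made up most of that sum in every liver, and the other markers were not summed apart. Lcn2 was also the only one of 16 neutrophil markers that passed: S100a8 was at 11.3, 6.31, 8.15, 6.19 and 19.3 CPM against 8.07, 3.16, 2.75 and 2.98 CPM (log2 fold change 1.30 ± 0.51, edgeR adjusted p = 0.278), S100a9 at 13.3, 7.57, 1.57, 6.19 and 11.3 CPM against 4.37, 3.16, 1.22 and 3.25 CPM (log2 fold change 1.42 ± 0.59, edgeR adjusted p = 0.334), and Ly6g had no count in 7 of 9 livers. The summed level of the neutrophil list was 150 to 1277 CPM against 30.4 to 89.7 CPM. In every plasmid liver Lcn2 made up most of that sum, so the range does not show a rise of the other members. The part of these cell types in the values was not tested.

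The remaining leading increases belong to none of these groups. Serpina7, the thyroxine-binding globulin on chromosome X, had the smallest p of all genes, at 218, 170.4, 205, 183 and 240.3 CPM in SB/AKT/NRas + TAA and 21.2, 9.08, 32.7 and 15.7 CPM in SB + TAA (log2 fold change 3.36 ± 0.31, edgeR adjusted p = 3.74e-07). Nt5e, the ecto-5′-nucleotidase that makes adenosine outside cells, was at 49.7, 47.3, 25.4, 34 and 48.6 CPM against 1.68, 3.16, 3.67 and 2.16 CPM (log2 fold change 3.93 ± 0.43, edgeR adjusted p = 5.15e-06). Apela, a peptide ligand of the apelin receptor, was at 6.67, 11.7, 10.7, 11.7 and 8.77 CPM and had no count in SB + TAA, at least 40.9-fold higher (edgeR adjusted p = 5.12e-05). Gipc2, an adaptor with a PDZ domain, was at 45.7, 42, 21, 22.3 and 39.8 CPM against 2.35, 2.76, 2.75 and 3.52 CPM (log2 fold change 3.56 ± 0.45, edgeR adjusted p = 3.2e-05), and Bglap3, a gene of the osteocalcin cluster, was at 37.7, 59.96, 11.3, 52.9 and 21.1 CPM against 0.672, 0.789, 0.306 and 2.16 CPM (log2 fold change 5.08 ± 0.70, edgeR adjusted p = 6.2e-05). Myh14, a nonmuscle myosin heavy chain, was at 26.7, 28.7, 11.3, 14.4 and 19.8 CPM against 4.37, 4.34, 2.14 and 3.79 CPM (log2 fold change 2.46 ± 0.34, edgeR adjusted p = 6.49e-05). None of these had overlapping livers, and each kept its call in every omission of 1 liver. Rdh16, a retinol dehydrogenase, was at 53.7, 48.6, 44.2, 40.9 and 26.3 CPM against 10.8, 13.4, 11 and 13.5 CPM (log2 fold change 1.80 ± 0.24, edgeR adjusted p = 5.65e-05). Plbd1, a phospholipase B-like protein of lysosomes, was at 37.7, 35.3, 28.8, 28.5 and 35.1 CPM against 9.07, 10.3, 10.7 and 10.5 CPM (log2 fold change 1.70 ± 0.23, edgeR adjusted p = 5.86e-05), Nxpe2 at 12, 10.7, 6.9, 8.6 and 11.8 CPM against 0.672, 1.97, 0.612 and 0.27 CPM (log2 fold change 3.56 ± 0.46, edgeR adjusted p = 3.2e-05) and Tenm3, a teneurin, had 5.01 to 8.84 CPM against 0.672 to 1.83 CPM (log2 fold change 2.53 ± 0.35, edgeR adjusted p = 6.2e-05). Krt79, a keratin, had 3.26 to 7.22 CPM and no count in SB + TAA, at least 19.2-fold higher (edgeR adjusted p = 6.2e-05). The uncharacterized gene 9030619P08Rik was at 59.1, 64.1, 57.1, 57.4 and 43.4 CPM against 9.41, 5.13, 20.8 and 11.4 CPM (log2 fold change 2.24 ± 0.28, edgeR adjusted p = 1.84e-05).

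Stress pathways moved in part. Of 29 ATF4 targets and amino acid supply genes, 4 rose and 1 fell with all livers, and 3 rose and none fell without SB + TAA replicate 4. Besides Fgf21, the neutral amino acid transporter Slc1a4 rose (log2 fold change 1.98 ± 0.37, edgeR adjusted p = 0.00278). Atf5 (log2 fold change 0.85 ± 0.22, edgeR adjusted p = 0.0404) and Ddit4, an inhibitor of mTORC1 (log2 fold change 1.68 ± 0.43, edgeR adjusted p = 0.0417), rose, and Slc3a1, a subunit of the cystine transporter, fell (log2 fold change −1.12 ± 0.28, edgeR adjusted p = 0.0398), but these 3 lost their calls in several omissions of 1 liver. The summed level was 615 to 791 CPM with the plasmids and 481 to 564 CPM in SB + TAA, and the median 0.60. Among 28 p53 targets 2 rose, Gdf15, a stress hormone, at 24.7, 29.7, 31.4, 28.5 and 21.8 CPM against 9.41, 9.47, 3.98 and 10.01 CPM (log2 fold change 1.72 ± 0.31, edgeR adjusted p = 0.00202), and Trp53inp1 (log2 fold change 0.72 ± 0.18, edgeR adjusted p = 0.0357), the latter lost in several omissions. Of the zonation genes, 4 of 30 rose (Nt5e, Slc13a3, Slc1a4 and Glul) and 1 fell (Aqp4), and the summed level was lower with the plasmids, 27025 to 38654 CPM against 44405 to 61244 CPM, most of it from Alb, at 22540.0, 23805, 33195, 32367 and 25343 CPM against 42991, 54524, 41488 and 39730.0 CPM (log2 fold change −0.70 ± 0.22, edgeR adjusted p = 0.119). Glul, the glutamine synthetase of perivenous hepatocytes, was at 101, 94.7, 85, 91.8 and 79.4 CPM against 35, 39.1, 45.3 and 33.3 CPM (log2 fold change 1.25 ± 0.28, edgeR adjusted p = 0.0168) and lost its call without SB + TAA replicate 1 or 4.

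Several lists had no gene that passed in edgeR. None of 20 RAS-MAPK feedback and ETS target genes did (10 positive and 10 negative fold changes, median 0.02, summed level 230 to 396 CPM against 231 to 468 CPM). In this list 2 members had an unadjusted p under 0.05, limma-voom passed none and DESeq2 passed 1, higher. Dusp6, a phosphatase induced by ERK, was at 64.1, 53.3, 67.1, 56 and 41.6 CPM against 38.3, 11.4, 42.5 and 22.7 CPM (log2 fold change 0.96 ± 0.28, edgeR adjusted p = 0.0876). None of 14 genes of the EGF receptor family and its ligands passed, nor any of 28 genes of mitosis (median −0.14) or 32 of DNA replication. In the DNA replication list 29 of 32 fold changes were negative, with a median of −0.51, and the summed level was 332 to 388 CPM with the plasmids against 424 to 622 CPM in SB + TAA, ranges that did not overlap. The summed level of the 19 clock genes, none of which passed, was also lower, 336 to 448 CPM against 452 to 557 CPM, but members moved both ways. Of their fold changes 13 were negative and 6 positive. Livers did not overlap in 5 members that were lower and 3 that were higher, where 1.71% and 2.89% of all genes did so. None of 42 genes of amino acid catabolism passed. limma-voom and DESeq2 passed no member of the lists of EGF receptor genes, mitosis, DNA replication, clock, amino acid catabolism or cholesterol either. At an unadjusted edgeR p under 0.05 there were 11 members lower and none higher in DNA replication, 4 lower and 2 higher in the clock, 3 lower and 1 higher in amino acid catabolism, 8 lower and none higher in cholesterol, 1 each way in the EGF receptor list and none in mitosis. These numbers stand without the share of all genes at that threshold, which was not counted. A gene that misses the threshold is not shown to be equal in the groups.

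Few members of the cell type lists other than muscle passed, and the medians of some lists lay away from 0. In the list of stellate cells and extracellular matrix (39 genes) none rose in edgeR, with Col1a1, the main fibrillar collagen, at 42.1, 33.1, 12.9, 8.94 and 48.6 CPM against 32.6, 12.2, 21.4 and 48.7 CPM (log2 fold change 0.01 ± 0.55, edgeR adjusted p = 1) and Acta2, the marker of activated stellate cells, at 11.7, 9.15, 2.19, 3.44 and 13.3 CPM against 8.74, 0.789, 4.59 and 5.41 CPM (log2 fold change 0.69 ± 0.64, edgeR adjusted p = 0.758). Des (log2 fold change −3.99 ± 0.79, edgeR adjusted p = 0.00495) and Gdf10 (log2 fold change −1.81 ± 0.42, edgeR adjusted p = 0.0194) fell with all livers but not without SB + TAA replicate 4 (edgeR adjusted p = 0.736 and edgeR adjusted p = 0.292). Among 15 genes of scar-associated macrophages Cd9, a tetraspanin, rose, at 124, 116, 75.6, 58.8 and 145 CPM against 34.6, 32.4, 34.6 and 42.5 CPM (log2 fold change 1.53 ± 0.31, edgeR adjusted p = 0.00577). Among 18 Kupffer cell genes Folr2, a folate receptor, rose (log2 fold change 1.39 ± 0.32, edgeR adjusted p = 0.0178) but not without SB + TAA replicate 4 or SB/AKT/NRas + TAA replicate 1, while Timd4 (log2 fold change 0.03 ± 0.36, edgeR adjusted p = 0.992) and Clec4f (log2 fold change 0.74 ± 0.27, edgeR adjusted p = 0.244) did not pass. In this list 14 fold changes were positive and 4 negative (median 0.49), with 6 members higher and none lower at an unadjusted edgeR p under 0.05. Ighm, the heavy chain of IgM, was at 48.4, 62.2, 66.8, 74.6 and 34.8 CPM against 9.41, 11.8, 21.1 and 22.4 CPM (log2 fold change 1.80 ± 0.34, edgeR adjusted p = 0.00278), the only 1 of 14 B and plasma cell genes that passed. Of 21 T and NK cell genes none passed (4 lower at an unadjusted p under 0.05, and 1 lower by limma-voom), 17 were negative (median −0.99), and their summed level was 20.0 to 41.1 CPM against 29.2 to 87.5 CPM. None of the genes of sinusoidal endothelium (17), class II antigen presentation (13), interferon response (25) or red blood cells (7) passed, and at an unadjusted p under 0.05 they had 1, 1, 2 and 0 members. limma-voom and DESeq2 passed none of them either, except 1 class II gene that was lower by limma-voom. Gpc3 was the 1 increase among 15 mesothelium genes, and Cela1, an elastase, the 1 among 10 adipocyte and pancreas genes (log2 fold change 0.72 ± 0.18, edgeR adjusted p = 0.0372), lost in several omissions of 1 liver.

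**Figure D3:**
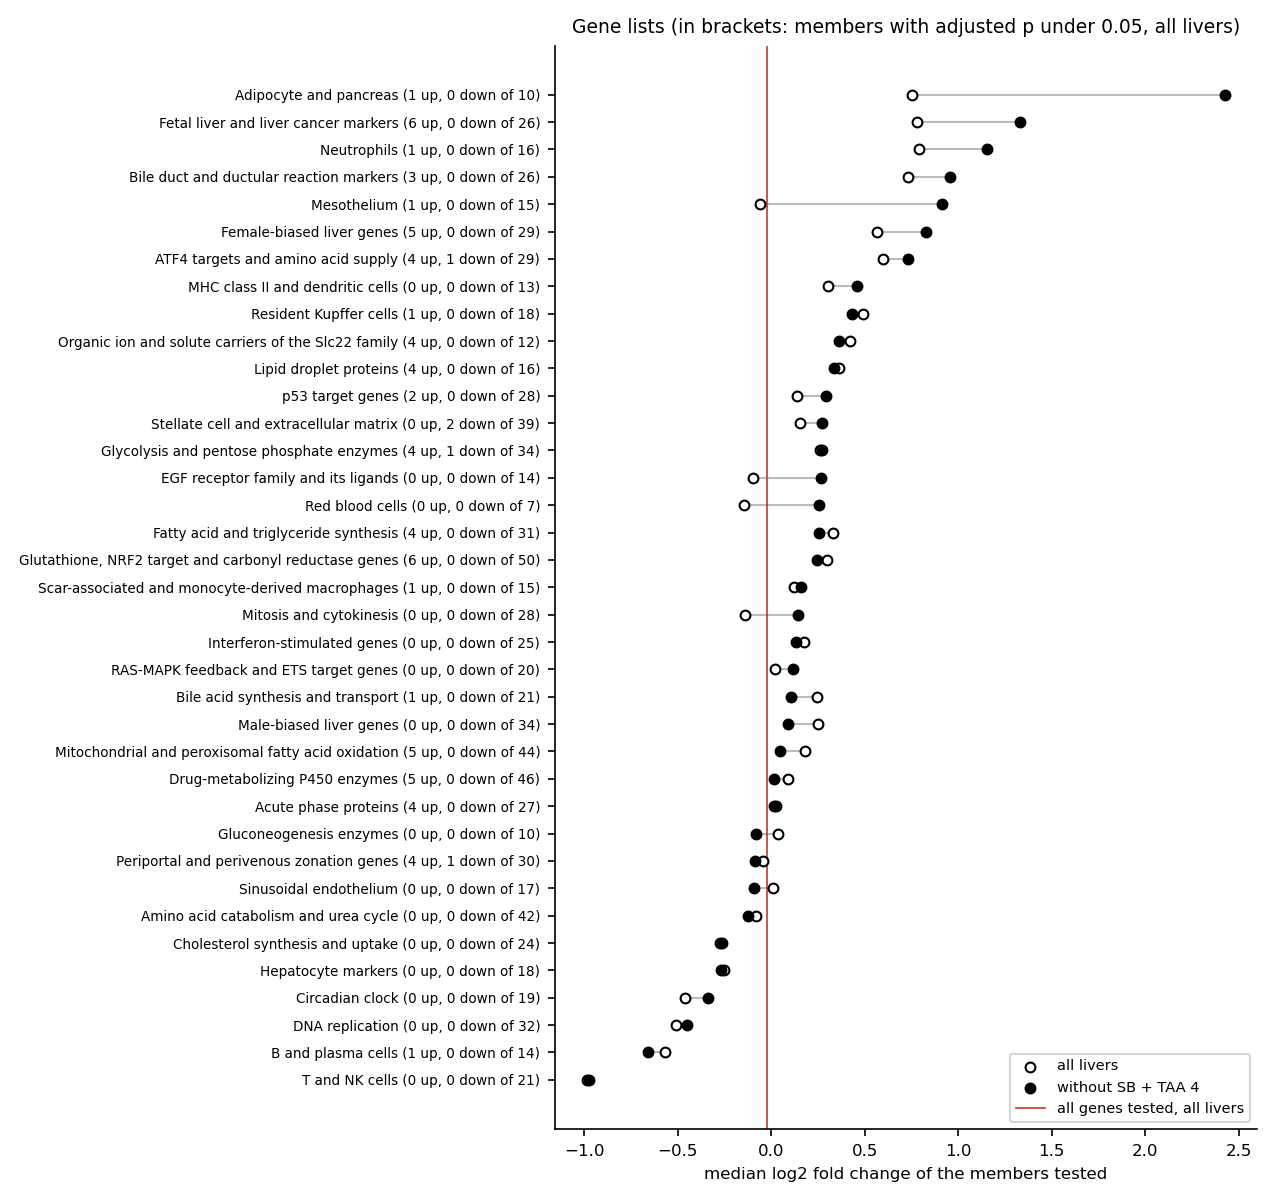
Median log2 fold change of SB/AKT/NRas + TAA against SB + TAA in each gene list, with all livers (open points) and without SB + TAA replicate 4 (black points), and the median of all genes tested as a red line. Fetal and cancer, bile duct, neutrophil and female-biased lists lie to the right in both fits and T and NK cells and DNA replication to the left. The skeletal muscle list, at −7.44 and 0.07, is not drawn.

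Of the 80 decreases, 9 were called with and without SB + TAA replicate 4. Npy, neuropeptide Y, was at 1.33, 1.58, 0.314, 0 and 0.752 CPM in SB/AKT/NRas + TAA and 28.9, 0.789, 6.73 and 29.8 CPM in SB + TAA (log2 fold change −4.31 ± 0.69, edgeR adjusted p = 0.000606, and −3.86 ± 0.71, edgeR adjusted p = 0.00366 without replicate 4). Aqp4, a water channel of perivenous hepatocytes, was at 2, 0.316, 1.88, 2.06 and 0.501 CPM against 7.39, 12.6, 10.7 and 2.7 CPM (log2 fold change −2.61 ± 0.54, edgeR adjusted p = 0.00688, and −2.92 ± 0.51, edgeR adjusted p = 0.00159 without). Slc10a2, a bile acid transporter, was at 16.4, 24, 21.6, 26.8 and 29.1 CPM against 74.3, 28, 69.1 and 77.6 CPM (log2 fold change −1.40 ± 0.29, edgeR adjusted p = 0.00789, and −1.28 ± 0.31, edgeR adjusted p = 0.039 without). In Npy and in Slc10a2 a single SB + TAA liver, replicate 2, lay within the range of the plasmid livers, whereas in Aqp4 all 4 lay above all 5. Esr1, the estrogen receptor α, was at 12, 6, 18.2, 14.8 and 10.02 CPM against 25.9, 17.8, 33.3 and 23.5 CPM (log2 fold change −1.05 ± 0.23, edgeR adjusted p = 0.0136, and −1.08 ± 0.25, edgeR adjusted p = 0.027 without), with 1 liver of each group out of order, and lost its call without SB/AKT/NRas + TAA replicate 5 or SB + TAA replicate 3. Rdh16f2, a retinol dehydrogenase, was at 48.4, 24.6, 56.4, 59.1 and 31.3 CPM against 121, 80.5, 117 and 105 CPM (log2 fold change −1.27 ± 0.26, edgeR adjusted p = 0.00581, and −1.28 ± 0.27, edgeR adjusted p = 0.0136 without), with no overlap. It lies 19909 bases from Rdh16, which rose, and as family members the 2 may share reads.

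The other decreases called both ways were low or noncoding. Gm12603 was at 0, 0.947, 0, 0 and 0.251 CPM against 13.1, 0.395, 10.4 and 10.8 CPM (log2 fold change −4.93 ± 0.78, edgeR adjusted p = 0.000556) and Gm20528 at 1.33, 0.947, 0.627, 1.03 and 0.501 CPM against 13.1, 4.34, 5.2 and 0.811 CPM (log2 fold change −2.68 ± 0.65, edgeR adjusted p = 0.0273), the latter lost without SB/AKT/NRas + TAA replicate 2, 3 or 5 or SB + TAA replicate 1. Hmga1, a chromatin protein of growing cells, had 3 counts with the plasmids and 24 in SB + TAA, a ratio of 0.0959, 95% counting interval 0.0185 to 0.316 (edgeR adjusted p = 0.0255). Gm44729 had 2 and 29 counts, a ratio of 0.0529, 95% counting interval 0.00612 to 0.209 (edgeR adjusted p = 0.0264). Both of these were lost when single livers were left out, Hmga1 without SB/AKT/NRas + TAA replicate 2, 3 or 5 or SB + TAA replicate 1, and Gm44729 without SB/AKT/NRas + TAA replicate 1, 2, 4 or 5 or SB + TAA replicate 3. Called only without SB + TAA replicate 4 were 4 decreases: Rdh5, a retinol dehydrogenase, at 11.3, 8.52, 11, 9.63 and 11.5 CPM against 21.5, 18.2, 22.9 and 14.9 CPM (−1.001 ± 0.21, edgeR adjusted p = 0.0131), Tmem41b (−1.04 ± 0.26, edgeR adjusted p = 0.0497), Ugt2b38 and B430119L08Rik (−2.08 ± 0.49, edgeR adjusted p = 0.0323).

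**Figure D4:**
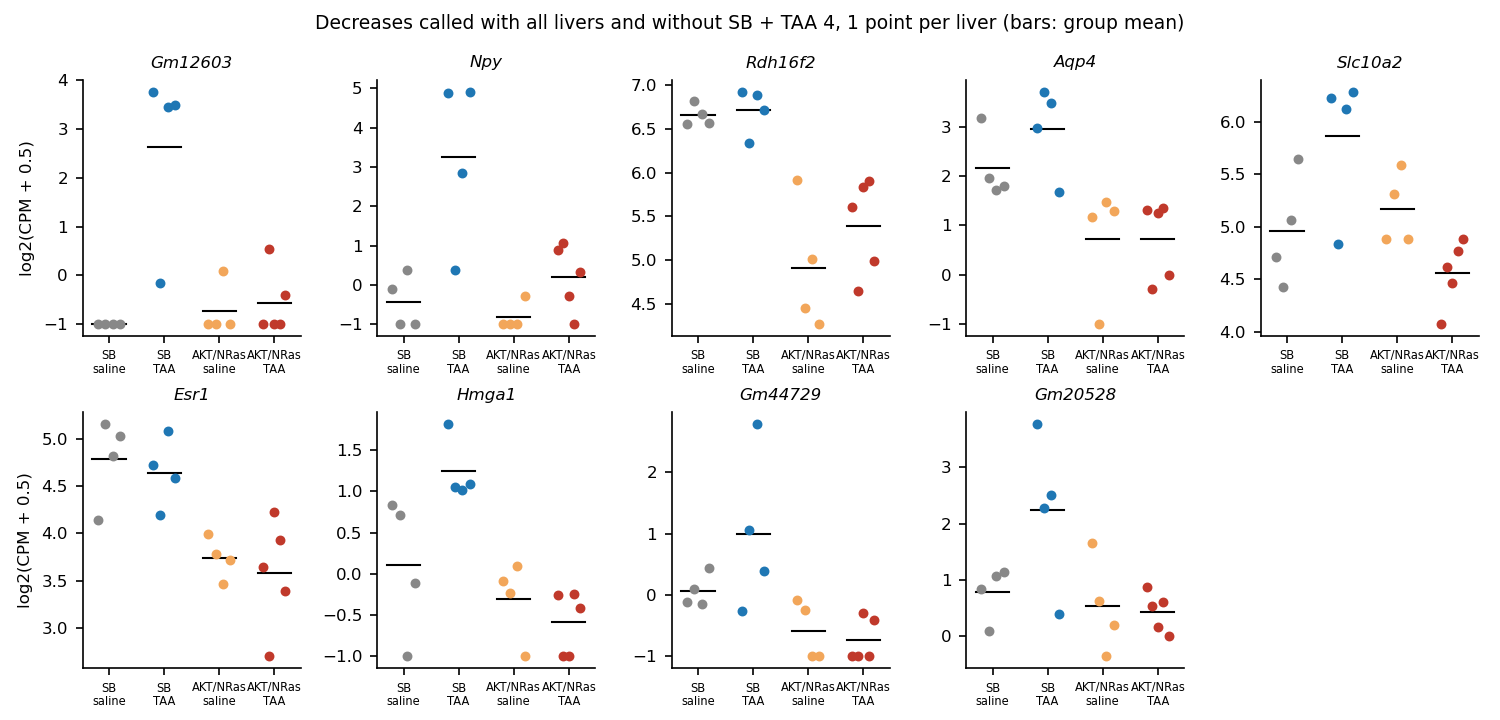
Levels of the 9 genes called lower with and without SB + TAA replicate 4, as log2(CPM + 0.5), 1 point per liver and a bar at the group mean, in the same 4 groups, with SB/AKT/NRas + TAA last. Rdh16f2 and Aqp4 separate the 5 SB/AKT/NRas + TAA livers from the 4 SB + TAA livers, while Npy, Gm12603 and Slc10a2 have 1 SB + TAA liver within the other group.

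The other 71 decreases were called with all livers only, and most were highest in the liver with muscle transcripts. SB + TAA replicate 4 was the highest of the 9 livers in 66 of them, 25 were members of the skeletal muscle list, 3 were not tested without that liver, and 25 had a positive fold change once it was left out. Tnnt3, troponin T of fast muscle, was at 0, 0.631, 0.627, 0.344 and 0.501 CPM in SB/AKT/NRas + TAA and 1.01, 0.789, 0.917 and 1105 CPM in SB + TAA (log2 fold change −9.20 ± 1.56, edgeR adjusted p = 0.00101, and −1.01 ± 0.98, edgeR adjusted p = 0.812 without that liver). Tnnc2, troponin C of fast muscle, was at 2172 CPM in that liver and 0.688 to 1.89 CPM with the plasmids, and Ttn, titin, and Tnni2, troponin I, were at 1410.5 CPM and 775 CPM there. With all livers 25 of 26 muscle genes fell, with a median of −7.44. Without it none passed and the median was 0.07. limma-voom, run on all livers, passed none of the 26, with 6 lower at an unadjusted p under 0.05. In the other 3 SB + TAA livers the muscle genes summed to 31.3 to 44.6 CPM, and in the plasmid livers to 37.4 to 48.6 CPM. Defining muscle genes were at or near 0 in those 8 livers: Ckm, the muscle creatine kinase, was at 0.667, 0.316, 0, 1.38 and 0.501 CPM and 0, 0 and 0.306 CPM, and Pvalb, parvalbumin, at 0 in 6 of the 8. Apart from that 1 liver the ranges of the groups overlapped.

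Another 15 genes were called higher only when that liver was left out, and none of these 15 is in the skeletal muscle list. That list does not hold every gene expressed in muscle, so absence from it does not tell where the counts in that liver came from. Their source was not tested. Beside Hk2, Plin4, Gpx3 and Nqo1, the clearest was Rcan2, a calcineurin inhibitor, at 14.4, 14.8, 14.7, 12.7 and 11.5 CPM with the plasmids, 0.672, 1.58 and 0.917 CPM in SB + TAA replicates 1 to 3 and 22.4 CPM in replicate 4. Its fold change moved from 0.99 ± 0.51, edgeR adjusted p = 0.473 to 3.67 ± 0.38, edgeR adjusted p = 1.56e-06. Fabp4, the fatty acid binding protein of fat cells and macrophages, was at 104, 131, 56.4, 49.9 and 186 CPM, 19.5, 17 and 22.3 CPM and 75.5 CPM in the same order (2.43 ± 0.55, edgeR adjusted p = 0.0216 without). Flt1, a VEGF receptor (1.42 ± 0.30, edgeR adjusted p = 0.0136), and Serpina5, the protein C inhibitor (3.58 ± 0.81, edgeR adjusted p = 0.0217), passed as well. For Rcan2, Hk2 and Nqo1 the value in replicate 4 lay within or above the range of the plasmid livers.

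Setting the 2 groups beside the saline livers showed which increases the plasmids gave in either setting and which appeared against a TAA decrease. Fitm1 was at 154 ± 34.1 CPM (SD, n = 4) in SB + saline, 9.9 ± 10.3 CPM in SB + TAA, 106 ± 53.3 CPM in SB/AKT/NRas + saline and 96.5 ± 10.6 CPM (n = 5) in SB/AKT/NRas + TAA. TAA alone lowered it (−3.91 ± 0.44, edgeR adjusted p = 3.93e-06), and the effect of the plasmids with TAA exceeded their effect with saline (3.77 ± 0.55, edgeR adjusted p = 0.00145, a contrast of 4 groups in the same edgeR fit). Rdh16 followed the same order, 38.8 ± 8.81 CPM, 12.2 ± 1.5 CPM, 27.2 ± 10.3 CPM and 42.8 ± 10.4 CPM (TAA effect −1.67 ± 0.25, edgeR adjusted p = 0.00025, and difference of plasmid effects 2.32 ± 0.34, edgeR adjusted p = 0.00145). Nxpe2, at 15.7 ± 2.88 CPM, 0.882 ± 0.749 CPM, 15.6 ± 6.37 CPM and 10.00 ± 2.2 CPM, fell with TAA (−4.19 ± 0.46, edgeR adjusted p = 3.47e-06) and differed likewise (3.57 ± 0.57, edgeR adjusted p = 0.00416), as did Plbd1 (−1.77 ± 0.24, edgeR adjusted p = 6.66e-05, and 1.69 ± 0.32, edgeR adjusted p = 0.00991). These 4 genes were lowest in TAA injury alone. With plasmids and TAA, Rdh16 averaged above SB + saline, and Fitm1, Nxpe2 and Plbd1, at 33.1 ± 4.16 CPM against 34.6 ± 4.57 CPM for the last, averaged between SB + TAA and SB + saline.

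Such a difference between the plasmid effects passed in 147 of 19381 genes (0.758%), 34 higher with TAA and 113 lower, and in 59 of 19156 (0.308%) without SB + TAA replicate 4. It passed in 18 of the 143 genes named by rule, 13 of them among the 109 that rose or fell. The rules chose genes largely by their plasmid effect with TAA, which is itself a term of this difference. The share among named genes therefore cannot be compared with that of all genes, and shows no enrichment. Tenm3 (2.32 ± 0.45, edgeR adjusted p = 0.0125), Slc13a3 (2.19 ± 0.48, edgeR adjusted p = 0.0238), Slc22a15 (1.49 ± 0.30, edgeR adjusted p = 0.0146) and Slc22a3, which had no count in SB + TAA (3.8 CPM on average in SB + saline, edgeR adjusted p = 0.00843), also kept the difference without SB + TAA replicate 4. Nt5e (2.79 ± 0.69, edgeR adjusted p = 0.0473), Aldh3a2 (1.77 ± 0.37, edgeR adjusted p = 0.0218), Pparg (2.09 ± 0.49, edgeR adjusted p = 0.0371), Cyp2c38 (2.64 ± 0.60, edgeR adjusted p = 0.031) and Mat1a, a methionine adenosyltransferase (1.45 ± 0.34, edgeR adjusted p = 0.0371), did not keep it. Pparg and Cyp2c38 had fallen with TAA alone (−2.01 ± 0.39, edgeR adjusted p = 0.00275 and −2.74 ± 0.47, edgeR adjusted p = 0.000872) and were at 10.05 ± 1.15 CPM and 26 ± 4.1 CPM with plasmids and TAA, beside SB + saline levels of 7.76 ± 1.35 CPM and 24.5 ± 7.54 CPM.

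Genes of mitosis and of DNA replication gave mostly differences of the opposite sign in edgeR, DESeq2 and limma-voom, but hardly any passed in limma-voom. Of 28 mitosis genes 11 passed in edgeR, all lower with TAA (39.3%, beside 0.583% of all genes tested), all 28 differences were negative and the median was −3.28. Of 32 DNA replication genes 6 passed, all lower (18.8%), with 30 negative and a median of −1.48, beside −0.11 for all genes. Without SB + TAA replicate 4 there were 7 and 2, beside 0.235% of all genes that were lower. DESeq2 gave 17 and 8 (all genes 1.15%), the replicate block 10 and 3 (0.557%) and limma-voom 1 and 0 (0.206%). Library size alone gave 18 and 12 (2.49%), where the median of all genes was itself −0.52. In limma-voom all 28 mitosis differences (median −2.67) and 29 of 32 replication differences (median −1.34) were negative. Ccnd1, cyclin D1, was at 38.2 ± 13.3 CPM (SD, n = 4) in SB + saline, 204 ± 65 CPM in SB + TAA, 133 ± 79.8 CPM in SB/AKT/NRas + saline and 129.5 ± 37.2 CPM (n = 5) in SB/AKT/NRas + TAA. It rose with TAA alone (2.43 ± 0.38, edgeR adjusted p = 0.00038) and with the plasmids alone (1.82 ± 0.38, edgeR adjusted p = 0.00345), but the plasmids did not raise it further on TAA (log2 fold change −0.66 ± 0.33, edgeR adjusted p = 0.468), and the difference passed (−2.48 ± 0.50, edgeR adjusted p = 0.0162). Cdc20, an activator of the anaphase-promoting complex (−3.62 ± 0.74, edgeR adjusted p = 0.0162), and Top2a, topoisomerase IIα (−3.11 ± 0.65, edgeR adjusted p = 0.0205), had the same pattern, with 1.52 ± 0.626 CPM and 3.19 ± 1.46 CPM in SB + saline and 14.5 to 19.7 and 23.5 to 25.8 CPM on average in the other 3 groups. Ccl5, a chemokine of T cells, was at 2.82 ± 2.07 CPM, 29.98 ± 17.8 CPM, 9.33 ± 3.82 CPM and 14.9 ± 4.79 CPM (−2.80 ± 0.61, edgeR adjusted p = 0.0238). Ly6d, which rose with the plasmids on both backgrounds, rose less on TAA (−3.23 ± 0.75, edgeR adjusted p = 0.0362). Of the 5 genes Ccnd1, Cdc20, Top2a, Ccl5 and Ly6d, all but Ccnd1 lost the difference with limma-voom, and Top2a and Ly6d lost the difference without SB + TAA replicate 4 (edgeR adjusted p = 0.0512 and 0.0786).

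Several of the leading increases were raised by the plasmids in saline-injected mice too. Cidea was at 7.16 ± 7.56 CPM in SB + saline and 167 ± 77.5 CPM in SB/AKT/NRas + saline (SD, n = 4 each), with individual values of 198, 239.8, 58.8 and 172 CPM in the latter (4.63 ± 0.51, edgeR adjusted p = 7.65e-06). Serpina7 was at 27.1 ± 2.69 CPM and 127 ± 44.4 CPM (2.23 ± 0.31, edgeR adjusted p = 0.000146). Compared directly with SB/AKT/NRas + saline, SB/AKT/NRas + TAA was higher in Nt5e (2.30 ± 0.37, edgeR adjusted p = 0.00396), Gipc2 (1.92 ± 0.39, edgeR adjusted p = 0.0241), Cyp2a4 (2.42 ± 0.51, edgeR adjusted p = 0.0314), Abcc4 (1.61 ± 0.30, edgeR adjusted p = 0.0126), Bglap3 (2.87 ± 0.56, edgeR adjusted p = 0.019) and Ighm (2.17 ± 0.35, edgeR adjusted p = 0.00396). It was lower in Glul, at 421 ± 206 CPM with plasmids and saline and 90.5 ± 8.54 CPM with plasmids and TAA (−2.22 ± 0.27, edgeR adjusted p = 6.75e-05). Glul thus stood above SB + TAA and below the plasmid livers without TAA. Cidea (−0.56 ± 0.38, edgeR adjusted p = 0.719) and Serpina7 (0.68 ± 0.27, edgeR adjusted p = 0.49) did not pass in this contrast.

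The other plasmid pair on TAA, SB/AKT/c-Met + TAA, was set against the same 4 SB + TAA livers, so the comparisons share their controls and only their values are given side by side. Serpina7 was at 170.2, 254, 245 and 132 CPM in the 4 SB/AKT/c-Met + TAA livers (3.34 ± 0.32, edgeR adjusted p = 6.97e-07), and Cyp2a4 at 436, 619, 319 and 304 CPM (4.07 ± 0.57, edgeR adjusted p = 0.000271). Cidea was at 23, 31.7, 21.2 and 53 CPM (3.46 ± 0.54, edgeR adjusted p = 0.00109), below every SB/AKT/NRas + TAA liver, and the direct contrast was 1.81 ± 0.41, edgeR adjusted p = 0.607. In the direct contrast of the 2 plasmid pairs under TAA, 2 of 19381 genes had an edgeR adjusted p under 0.05 (0.0103%), and both were transgenes. Human NRAS had no count in the 4 SB/AKT/c-Met + TAA livers (edgeR adjusted p = 0.000882 for the contrast), and human MET was at 0.768, 4.93, 5.83 and 10.9 CPM there, with no count in the 5 livers of the NRas pair (edgeR adjusted p = 0.0479). At an unadjusted p under 0.05 there were 893 genes, and DESeq2 passed the same 2. S100g, a calcium-binding protein, passed beside both transgenes by limma-voom and without SB + TAA replicate 4, and with a replicate block it passed with human NRAS while human MET did not. That few genes passed does not show that the 2 pairs act alike.

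Among the 5 SB/AKT/NRas + TAA livers the increases were not of equal size. Of the 112 genes called higher both ways without overlap, 95 (84.8%) were highest in replicate 1, 2 or 5 and 80 (71.4%) were lowest in replicate 3 or 4. Of the 15650 genes with 1 highest and 1 lowest liver, 57.3% and 42.8% were. Human NRAS was itself highest in replicates 1, 2 and 5. Lcn2 was at 627, 1005, 144, 125 and 1197 CPM, Fam83a, a protein of the EGF receptor and RAS signaling chain, at 24.7, 18.6, 6.58, 5.16 and 22.8 CPM, and Spp1 at 1218, 1528, 303, 202 and 4641 CPM, each lowest in replicates 3 and 4. Mogat1 at 9.01, 9.15, 9.72, 9.28 and 6.77 CPM, Pparg at 9.34, 10.4, 11.9, 9.28 and 9.27 CPM and Fitm1 at 93.8, 93.4, 84, 113 and 98 CPM were nearly level over the same livers. Other lipid genes were not level. Cidec at 50.4, 72.9, 28.8, 33 and 51.4 CPM, Plin2 at 843, 842, 579, 544 and 915 CPM and Cd36 at 404, 396, 245, 221 and 342 CPM were lowest in replicates 3 and 4. With 5 livers no correlation was computed, and the genes in this paragraph were chosen after their values were seen.

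**Figure D5:**
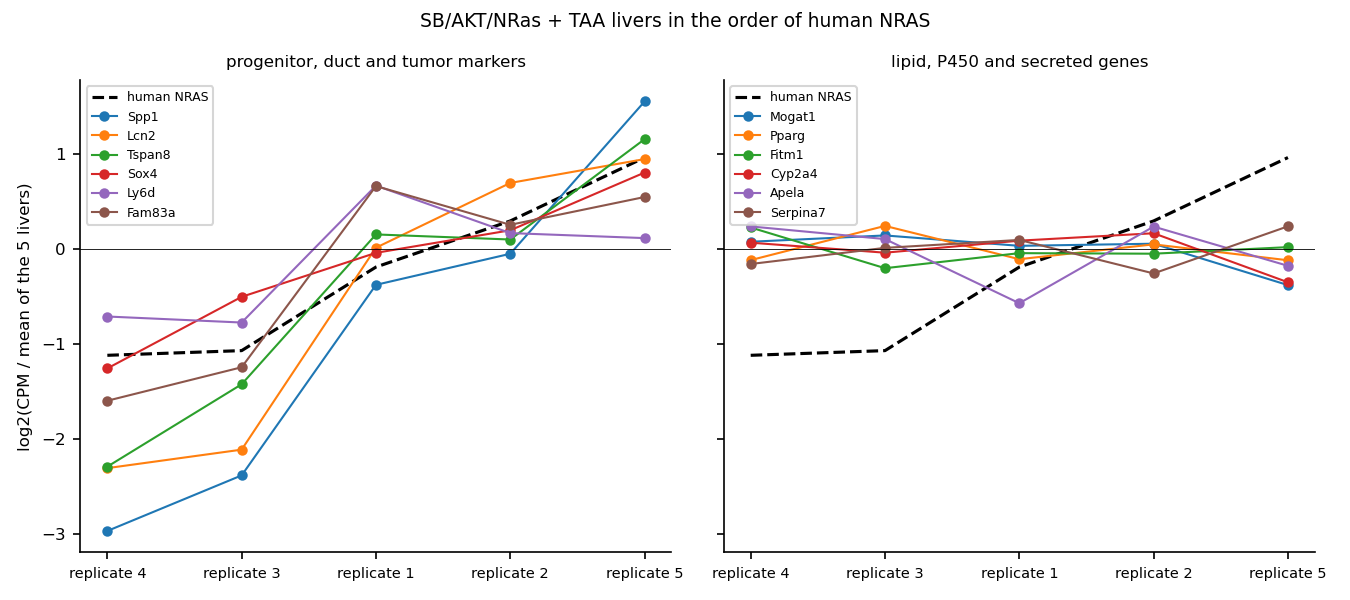
Level of each gene in the 5 SB/AKT/NRas + TAA livers relative to its mean over them, as log2 ratio, with livers ordered by human NRAS (replicates 4, 3, 1, 2 and 5). Human NRAS (dashed), Spp1, Lcn2, Tspan8, Sox4, Ly6d and Fam83a (left) are lowest in replicates 3 and 4, while Mogat1, Pparg, Fitm1, Cyp2a4, Apela and Serpina7 (right) vary less and in no common order. The lipid genes Cidec, Plin2 and Cd36, not drawn, were also lowest in replicates 3 and 4. The genes were chosen after their values were seen.

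Some called genes were neighbours. Within 100 kb of another called gene lay 43 of the 240, in 21 clusters, of which 13 held only increases and 5 only increases called both ways (GRCm38 coordinates). These 5 were Orm3 with Orm2, Cyp2b9 with Cyp2a4 (chromosome 7, 26173411 to 26210661, 96508 bases before Cyp2a4), Tubb2a with Tubb2b (chromosome 13, 34074274 to 34078007, and 34126748 to 34130466), Krt4 with Krt79 (chromosome 15, 101918536 to 101924735, and 101929332 to 101940324) and Meg3 with Rian (chromosome 12, 109541001 to 109571726, and 109603940 to 109661716), the last pair with the losses given above. Tubb2a was at 803, 899, 428, 407 and 751 CPM against 185, 58, 123 and 173 CPM (log2 fold change 2.29 ± 0.40, edgeR adjusted p = 0.00157), and Krt4 had 0.627 to 2.52 CPM and no count in SB + TAA, at least 7.42-fold higher (edgeR adjusted p = 0.0136). In pairs of gene copies such as Tubb2a and Tubb2b reads may be split between the members. Sox4 and Gm26735 (log2 fold change 2.61 ± 0.65, edgeR adjusted p = 0.0319, lost in 7 of 9 omissions of 1 liver, that of SB + TAA replicate 4 included), and Shc2, a signaling adaptor (at least 12.3-fold higher with no count in SB + TAA, edgeR adjusted p = 0.000817), and AC132265.1 (log2 fold change 3.38 ± 0.74, edgeR adjusted p = 0.0151, lost without SB + TAA replicate 4), overlap on opposite strands, and the counting used the forward strand. The remaining pairs include Serpinb6b (log2 fold change 3.10 ± 0.58, edgeR adjusted p = 0.00267, not called by limma-voom) with Serpinb9, Fam83a (log2 fold change 4.22 ± 0.76, edgeR adjusted p = 0.00188) with Tbc1d31, Rarres1, at 128, 165, 117, 149 and 109 CPM against 30.2, 49.7, 45 and 31.4 CPM (log2 fold change 1.77 ± 0.26, edgeR adjusted p = 0.000174), with Mlf1, which fell and was at 35.4 CPM in SB + TAA replicate 4 and 0 to 0.501 CPM with the plasmids, and Lbp with Snhg11 (log2 fold change 2.004 ± 0.45, edgeR adjusted p = 0.0153, lost without SB + TAA replicate 1 or 3). Rdh16 and Rdh16f2 (chromosome 10, 127801152 to 127846565, and 127866474 to 127877317) were the pair of adjacent members of a family that moved in opposite directions.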

How the data were processed

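RNA of 24 whole livers was sequenced from poly(A)-primed libraries with molecular tags, and each liver was placed in its group by its sample label. The table deposited by the authors holds raw counts of molecules for each gene, which they had not normalized. To make it they split the reads by sample (Sabre), mapped them with STAR on GRCm38 extended by human NRAS and MET, dropped duplicates that share a tag (Picard and Samtools, run by RNAsik), and counted the forward strand with featureCounts 1.6.4, keeping mapping qualities from 10. In the summary of counts deposited by the authors, 19.4% to 23.1% of the records of the 9 libraries fell in a gene. Reads with several equal positions were not counted, so near-identical genes have uncertain counts.

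Genes were tested if 2 or more libraries reached 0.5 CPM. After TMM scaling, a quasi-likelihood model with a mean for each of the 6 groups was fitted over the 24 libraries (edgeR 4.0.16, R 4.3.3), and Benjamini-Hochberg adjustment covered every gene tested. A call also needs a log2 fold change beyond 1. limma 3.58.1 (voom) and DESeq2 1.42.0 were alternatives. The model was tested on simulated data. Plots were made in matplotlib 3.10.9 under Python 3.11.15. Promoter sequences are those of RefSeq (GRCm38.p6).

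The genes named are (1) the transgenes with mouse Nras, Met, Akt1 and Akt2, (2) the 25 increases with the smallest p among those called with and without SB + TAA replicate 4 whose livers do not overlap, (3) the decreases called both ways, (4) the 4 decreases with the smallest p that were not called without that liver, (5) up to 6 members of each list that passed, or 2 by level where none did, and (6) called genes within 100 kb of another. A few genes that these rules name are not reported here. Other genes were chosen after their values were seen: those called only without SB + TAA replicate 4, Spp1, S100g, Cyp2e1, Saa1, Hp and the defining cell markers and list members named for not passing. The comparison, the lists and their members were chosen with earlier results of these data known.

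No label pairs the livers: once group means were removed, same-numbered livers of both groups correlated by 0.0312, −0.0891, 0.0818 and −0.182. Alternatives were RLE factors, library size alone, dropping the filter, filterByExpr, limma-voom, DESeq2, robust estimation, a fit of only the 9 libraries, a replicate block, the adjusted p alone, the F test over the 6 groups as a second criterion and leaving out each liver. Those for the contrasts with saline and with c-Met were chosen after the data were seen. No 2 libraries were identical. The AKT plasmid was not analysed here.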

Additional observations from a re-analysis of the deposited data

Results flagged for a closer look

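In 286 groups of 4 or 5 livers examined, 1 for each named gene and group, 40 had a highest or lowest liver whose gap to the next was large by Dixon's test. In normally distributed values chance flags about 1 in 20 groups. These are counts, where a single liver with counts beside livers at 0 is always flagged, so that rate need not hold here. Groups with the same value in all livers, such as human MET, could not be flagged. Of the 40, 25 were in SB + TAA replicate 4, where they include 1105 CPM of Tnnt3, 1410.5 of Ttn, 775 of Tnni2, 2172 of Tnnc2, 134 of Eno3, 290.5 of Atp2a1, 1659.6 of Acta1, 62.5 of Casq1, 283 of Myh2, 508 of Myh1, 259 of Myh4, 35.4 of Mlf1, 230.2 of Nexn, 58.7 of Mybpc2 and 1019.9 of Mylpf. The same liver stood apart in Des (97.9 CPM), Gdf10 (14.9), Egfr (71.4), Fitm1 (25.2), Meg3 (9.2), Rian (1.62) and Mup20 (3106, the lowest), and in genes with few counts, Cyp2b9 (0.541), Mgst2 (0.27) and Slc22a29 (0.811).

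Among the other SB + TAA livers, replicate 1 stood apart in Hmga1 (3.02 CPM), Phlda1 (69.6) and Gstm3 (285, the lowest). Replicate 2 stood apart in Aldh3a2 (127), Fgf21 (13) and Cyp2a5 (254). In replicate 3 it was human NRAS, with 2 counts (0.612 CPM) in a liver without the plasmid, and Gdf15 (3.98, the lowest). Among the SB/AKT/NRas + TAA livers the values were 0.334 CPM of Myh4 and 0.667 of Mybpc2 in replicate 1, 0.947 of Gm12603 and 0.631 of Myh1 in replicate 2, 153 of Cbr1 in replicate 3, 25.4 of Slc22a15 in replicate 4 and 6.77 of Mogat1 in replicate 5.

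The effect of the plasmids differed between TAA and saline in 18 named genes by the contrast of 4 groups in edgeR. On the log2 scale it was larger with TAA by 2.79 in Nt5e, 1.77 in Aldh3a2, 3.57 in Nxpe2, 3.77 in Fitm1, 2.32 in Rdh16, 1.69 in Plbd1, 2.32 in Tenm3, 2.19 in Slc13a3, 2.09 in Pparg, 2.64 in Cyp2c38, 1.49 in Slc22a15, 6.93 in Slc22a3 and 1.45 in Mat1a. It was smaller with TAA in Ccnd1 (−2.48), Top2a (−3.11), Cdc20 (−3.62), Ly6d (−3.23) and Ccl5 (−2.80). Without SB + TAA replicate 4, 11 of the 18 kept an adjusted p under 0.05 and 7 did not, and all kept their direction. With limma-voom Nt5e, Top2a, Cdc20, Ly6d and Ccl5 lost it, with library size alone Nt5e, Slc13a3, Pparg and Mat1a, with the replicate block Ly6d, and with DESeq2 none. Slc22a3 had no count in SB + TAA, so its value depends on the prior count of the fit. Between the 2 plasmid pairs under TAA, the fitted contrasts of human NRAS (9.81) and human MET (−7.02) passed, and each is set by a group with no count and is no bound of a fold.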

How the results depend on the processing

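The count of increases moved less between settings than that of decreases. Against 160 called increases, RLE size factors gave 160, library size alone 141, filterByExpr 157, limma-voom 149, DESeq2 181, robust estimation 131, a fit of only the 9 libraries 161, the F test as a second filter 157, the adjusted p alone 195 and no filter 281. Omission of 1 liver gave 117 to 173. Against 80 called decreases, RLE gave 79, library size alone 74, the F test 77, the adjusted p alone 90, no filter 253, filterByExpr 27, limma-voom 29, DESeq2 19, robust estimation 38 and a fit of only the 9 libraries 18. Omission of 1 liver gave 13 to 136 decreases, the extremes without SB + TAA replicate 4 and replicate 2, with 49, 42 and 48 without SB/AKT/NRas + TAA replicates 1, 2 and 5. With SB + TAA replicate 4 left out as well, limma-voom gave 105 higher and 14 lower, DESeq2 154 and 13, only the other 8 libraries 176 and 23, and library size alone 118 and 10. The share of increases among all calls was 66.7% in the edgeR fit, 52.6% with no filter, 85.3% with filterByExpr, 83.7% with limma-voom, 90.5% with DESeq2, 77.5% with robust estimation, 89.9% with only the 9 libraries, 78.7% with the replicate block and 90.9% without SB + TAA replicate 4. The cause of these shifts was not tested, apart from the fewer livers or genes that an alternative uses. limma-voom shared 125 of its 149 increases and 17 of its 29 decreases with the edgeR fit.

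The replicate number as a block gave 129 higher and 35 lower, 122 and 33 of them shared, and since the livers share only a number it was not used. The direct contrast of the 2 plasmid pairs gave 2 genes, 1 with library size alone, 4 with limma-voom, 3 without SB + TAA replicate 4, 2 with DESeq2 and 2 with the block, where human MET was replaced by S100g. The contrast of plasmid effects with TAA and with saline gave 147 genes, 506 with library size alone, 349 with DESeq2, 155 with the block, 85 with limma-voom and 59 without SB + TAA replicate 4, so its size is not firm.

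Of 109 named genes that passed, 52 kept their call in every alternative, 49 lost it in at least 1 and 8 reversed. All 8 reversed where SB + TAA replicate 4 was left out. Over the omissions of 1 liver in edgeR their log2 fold changes ran from −9.11 to 0.48 for Tnnc2, −3.92 to 0.0696 for Eno3, −9.26 to 0.52 for Atp2a1, −7.63 to 0.89 for Acta1, −6.28 to 2.69 for Casq1, −2.99 to 0.74 for Nexn, −8.43 to 1.94 for Mybpc2 and −6.29 to 0.57 for Mylpf, with the positive end without SB + TAA replicate 4. The values that follow are all from fits without that liver. With limma-voom and that liver left out they were 0.57 for Tnnc2, 0.15 for Eno3, 0.10 for Atp2a1, 0.79 for Acta1, 0.95 for Casq1, 0.73 for Nexn, 0.32 for Mybpc2 and 0.46 for Mylpf. With DESeq2 and that liver left out they were 0.50 for Tnnc2, 0.0800 for Eno3, 0.60 for Atp2a1, 0.90 for Acta1, 1.91 for Casq1, 0.75 for Nexn, 1.01 for Mybpc2 and 0.58 for Mylpf. With only the other 8 libraries Tnnc2 (0.48), Eno3 (0.067), Acta1 (0.89), Nexn (0.74) and Mylpf (0.57) reversed. With library size alone and that liver left out the values were 0.54 for Tnnc2, 0.13 for Eno3, 0.58 for Atp2a1, 0.98 for Acta1, 2.78 for Casq1, 0.81 for Nexn, 2.01 for Mybpc2 and 0.61 for Mylpf. Of the genes that passed and are named above, limma-voom ended the calls of Lcn2, Fam83a, Serpinb6b, Serpinb9, Glul, Meg3, Tspan8, Snhg11, Gm26735, Ddit4, Npy, Gm20528 and Gm44729, beside those of muscle genes and others led by SB + TAA replicate 4. With that liver left out it also ended, among genes that edgeR passed without it, those of Gpc3, Sox4, Orm3, Slc1a4 and Slc10a2. DESeq2 ended those of Krt4, Hmga1 and Gm44729 beside genes of that same set. Depth limits genes under about 1 CPM, where a liver holds 3 counts or fewer.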
